A study of Arabidopsis thaliana with 9 samples.

Results

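The rows described are the 18 rows of the deposited count table with identifiers from AT2G07667 to AT2G07835 in numeric order, out of 22254 rows in all. This span of identifiers belongs to chromosome 2 of Arabidopsis thaliana, where a large piece of mitochondrial DNA lies in the nuclear genome, and the rows were read beside the 118 rows with ATMG identifiers, which belong to the mitochondrial genome itself. RNA came from whole seedlings, with 3 libraries for each of 3 genotypes, namely Columbia-0 wild type (wt) and 2 knock-out lines in that background, clpp2-1 and clpp2-2. The gene knocked out is CLPP2 (AT5G23140), which encodes the peptidase of the mitochondrial CLPXP protease, and the study asks how complexes with subunits from the nuclear and the mitochondrial genome are assembled. All seedlings were 2 weeks old and grew in shaken Murashige and Skoog liquid medium under 150 µmol m-2 s-1 of light for 16 h at 22 °C and 8 h of dark at 18 °C. BGI prepared the libraries from total RNA with random hexamer primers. Where each knock-out allele is disrupted is not stated, and neither is whether replicates came from separate cultures, so the p-values rest on a spread among samples that may be purely technical. In bulk seedlings, fewer cells of a type and less RNA per cell cannot be told apart.

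Plant nuclear genomes take up pieces of organelle DNA, and such nuclear copies of mitochondrial DNA are called NUMTs. The insertion near the centromere of Arabidopsis chromosome 2 is a well-known one, and its sequence is nearly the same as that of the mitochondrial genome it came from. A sequencing read from a mitochondrial transcript can therefore match both genomes. What a program that assigns reads to transcripts does with it depends on the transcripts it is given. The read may be divided, discarded or counted in full on a single row. Which transcripts were used here is not stated.

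In the TAIR10.1 reference, matches of at least 500 bases and 95% identity to the mitochondrial genome ran without a large break over chr2:3239038-3509765, a stretch of 270728 bases of which 269621 (99.6%) were matched. The 19 matching blocks were 99.56 to 99.97% identical, and together they hold copies of 265721 bases (72.2%) of the 367808-base mitochondrial genome. Whether the reference holds the insertion in full was not tested. The sequences across both edges are shown because they mark where the outermost matching blocks (capitals) end and the flanking sequence (lower case) begins. They are read on the plus strand at chr2:3238998-3239077 and chr2:3509726-3509805. Whether the flanks hold shorter or less similar mitochondrial matches was not tested.
Left edge: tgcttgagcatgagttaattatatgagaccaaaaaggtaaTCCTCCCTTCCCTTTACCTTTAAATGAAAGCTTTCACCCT
Right edge: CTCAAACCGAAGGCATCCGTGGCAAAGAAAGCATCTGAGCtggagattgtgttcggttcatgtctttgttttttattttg

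Of the 18 rows, 16 lie inside the insertion and 2 lie beyond its right edge. Numeric order of the identifiers is not the order along the chromosome: AT2G07680 (ABCC13, chr2:3514668-3522658, annotated as a multidrug resistance-associated protein) and AT2G07690 (MCM5, chr2:3522984-3527500, a subunit of the MCM helicase that unwinds DNA in replication) have numbers within the span, but their exons had no match to the mitochondrial genome. The annotation holds 144 loci with identifiers in the span, and the other 126 were not analysed here. It places 185 loci inside the insertion, of which the 16 described are those with a row. All 16 are annotated as genes for uncharacterized proteins, so no function is given for them. Their exons amount to 111 bases in AT2G07684, the shortest, and to 1391 bases in AT2G07806, the longest.

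The exons of the 16 genes matched mitochondrial DNA over their whole length, except in AT2G07827, where 619 of 623 bases (99.36%) matched. Very short matches were not counted, so the rest is not shown to differ from mitochondrial DNA. The exons of 13 genes showed no base difference, and the other 3 genes carried 4 differences in all. They are shown because they are the only base differences found between these exons and the mitochondrial DNA of the reference. Only reference DNA was compared, not reads. Each difference is shown in a window of 41 bases on the plus strand of chromosome 2 with the differing base in capitals. The differences are written with the mitochondrial base first, the position from 1 at the 5′ end of the window, and the chromosome 2 base last. The difference was G21C in AT2G07728 (position 3453697), G21C and C21G in AT2G07795 (positions 3494035 and 3494200) and G21A in AT2G07827 (position 3476795).
AT2G07728, 3453697, chromosome 2: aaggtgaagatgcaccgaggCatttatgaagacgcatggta
AT2G07728, 3453697, mitochondrial: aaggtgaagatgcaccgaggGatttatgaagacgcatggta
AT2G07795, 3494035, chromosome 2: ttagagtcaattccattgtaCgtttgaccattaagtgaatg
AT2G07795, 3494035, mitochondrial: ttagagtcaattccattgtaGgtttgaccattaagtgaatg
AT2G07795, 3494200, chromosome 2: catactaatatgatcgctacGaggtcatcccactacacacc
AT2G07795, 3494200, mitochondrial: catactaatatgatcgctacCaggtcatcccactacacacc
AT2G07827, 3476795, chromosome 2: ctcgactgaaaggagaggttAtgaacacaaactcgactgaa
AT2G07827, 3476795, mitochondrial: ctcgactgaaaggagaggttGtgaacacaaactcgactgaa

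Every stretch of 31 bases of the transcript was also present in the mitochondrial genome for 7 genes, namely AT2G07684, AT2G07669, AT2G07705, AT2G07820, AT2G07825, AT2G07830 and AT2G07738, each of which has a single exon without a base difference. Compared as reference DNA, no stretch of that length in these genes tells the nuclear from the mitochondrial copy. The remaining 9 genes had some stretches absent from mitochondrial DNA, from 29 of 1279 in AT2G07787, 29 of 561 in AT2G07774 and 30 of 824 in AT2G07721 up to 211 of 821 in AT2G07728 and 239 of 650 in AT2G07827. AT2G07772 had 58 of 510, AT2G07775 had 59 of 640, AT2G07795 had 62 of 1127 and AT2G07806 had 227 of 1390. The deposited counts do not show which part of a gene its reads came from, so how many reads of each row came from mitochondrial RNA was not tested.

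Placed on the mitochondrial genome, the 16 genes barely touch the protein-coding genes annotated in TAIR10.1. In AT2G07827, 37 bases also match nad2 on the opposite strand, and 30 bases of AT2G07795 also match nad5, both outside their main matches. That annotation holds no ATMG identifiers, so overlap of the 16 genes with the ATMG rows was not tested. AT2G07774 overlaps the copy of a serine transfer RNA gene, trnS(GCT), by 57 bases on the same strand, and AT2G07775 overlaps by 59 bases that of the initiator methionine transfer RNA gene trnfM(CAT) on the opposite strand. In the mitochondrial genome the sequence of AT2G07806 ends 32 bases before rrn26, the gene of the large mitochondrial ribosomal RNA, on the same strand. The insertion as assembled in TAIR10.1, however, holds only 19 of the 3169 bases of rrn26. AT2G07825 lies 590 bases from the copy of the ribosomal protein gene rps4. Sequences from chromosome 2 are shown, because these genes rose the most in clpp2-2: the whole exon of AT2G07684 (chr2:3262235-3262345, minus strand), the last 120 bases of AT2G07774 (chr2:3303766-3303885, minus strand, capitals in trnS(GCT)) and the third exon of AT2G07775 (chr2:3483937-3484062, plus strand, capitals opposite trnfM(CAT)).
AT2G07684: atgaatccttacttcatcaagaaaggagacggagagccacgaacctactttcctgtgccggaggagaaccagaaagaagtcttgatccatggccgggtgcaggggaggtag
AT2G07774: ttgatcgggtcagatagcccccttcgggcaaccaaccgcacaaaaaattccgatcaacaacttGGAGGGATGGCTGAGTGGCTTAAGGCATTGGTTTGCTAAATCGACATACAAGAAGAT
AT2G07775: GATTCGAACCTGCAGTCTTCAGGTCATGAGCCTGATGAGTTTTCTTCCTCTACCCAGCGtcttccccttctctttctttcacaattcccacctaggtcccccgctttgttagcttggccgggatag

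Library totals ran from 36043744 to 36477053 counts. CLPP2 held 1594 to 1670 counts in the wild-type libraries, 179 to 224 in clpp2-1 and 160 to 169 in clpp2-2. Levels are in CPM, counts scaled to library size. Transcripts of 7 seed storage protein genes, a mark of leftover seed RNA, summed in the wild-type libraries to 104, 23.3 and 0.35 CPM. The clpp2-1 libraries held 12.9, 2.67 and 0.896 CPM of them, and the clpp2-2 libraries 0.632, 1.1 and 0.988 CPM. Counts are therefore also given with wt 1 and clpp2-1 1 left out, the libraries richest in it within their genotypes. The setting keeps wt 2, at 23.3 CPM, and the part of seed RNA in the results was not tested.

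The 16 genes inside the insertion were all detected in each library and all passed the filter on low counts, but they were weakly represented. The lowest value was 15 counts, for AT2G07738 in clpp2-1 3, with a 95% exact Poisson interval of 8.4 to 24.7 counts, and the highest was 651 counts, for AT2G07774 in clpp2-2 1, with 602 to 703. Mean levels in the wild type ran from 0.643 CPM in AT2G07721 to 6.66 CPM in AT2G07787, with a median of 1.81 CPM. Per kilobase of exon, the wild-type level was highest for AT2G07774 at 9.64 CPM per kb, followed by AT2G07684 at 6.76 and AT2G07820 at 6.18, and lowest for AT2G07721 at 0.753. In clpp2-2 the same measure reached 24.9 CPM per kb for AT2G07774 and 18.3 for AT2G07684, while the median of the 16 genes went from 4.52 in the wild type to 3.62 (clpp2-1) and 5.08 (clpp2-2).

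Together the 16 genes took 35.2, 42.4 and 36.6 CPM in the wild-type libraries, 39.7, 53.1 and 45.3 in clpp2-1 and 62.5, 58 and 60.7 in clpp2-2. The clpp2-2 libraries all lay above the others, and those of clpp2-1 overlapped the wild type. The means were 38.1 ± 3.82, 46 ± 6.74 and 60.4 ± 2.23 CPM (SD, n = 3), 1.21 and 1.59 times the wild type in the lines. As a share of all counts, the 18 rows took 0.00523 ± 0.000251% of the wild type, against 0.00622 ± 0.000838% of clpp2-1 and 0.00766 ± 0.000461% of clpp2-2 (SD, n = 3).

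The ATMG rows moved further. Their sum was 540, 542 and 571 CPM in the wild-type libraries, 849, 1055 and 931 in clpp2-1 and 1140, 1069 and 1138 in clpp2-2, so the libraries of each line lay wholly above the wild type, at 1.71 and 2.02 times its mean. For every 100 counts on ATMG rows, the 16 genes held 6.51, 7.83 and 6.42 counts in the wild-type libraries. The clpp2-1 libraries had 4.68, 5.03 and 4.86, and the clpp2-2 libraries 5.48, 5.43 and 5.33. This ratio was lower in each of the 6 libraries of the lines than in any wild-type library, although the 16 genes did not fall in sum. A few abundant rows weigh on the ATMG sum: the 5 with the highest counts held 27.2% of it in the wild type, against 33.6 and 34% in the lines.

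**Figure D1:**
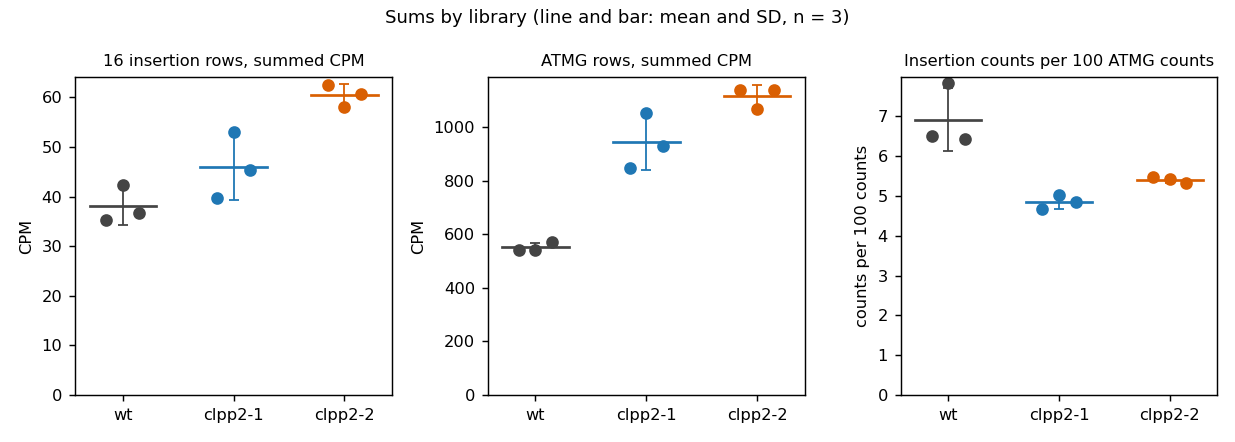
Summed CPM of the 16 genes inside the insertion (left), summed CPM of the ATMG rows (middle) and counts on the 16 genes per 100 ATMG counts (right) in each of the 9 libraries, with the mean (line) and SD (bar, n = 3) of each genotype. Both sums are highest in clpp2-2, at 60.4 and 1116 CPM, and the ratio is highest in the wild type, at 6.92.

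In clpp2-2, 6 of the 16 genes rose against the wild type and none fell (edgeR's quasi-likelihood test, Benjamini-Hochberg adjusted over all 20294 genes tested, adjusted p under 0.05). Over all genes 10.1% were called, and 5.50% were called higher, so the share among the 16 was larger than the background. Their log2 fold changes had a median of 0.36, against -0.01 over all genes tested, and ran from -0.27 in AT2G07825 to 1.62 in AT2G07775. All 3 clpp2-2 libraries lay above all 3 wild-type libraries for 7 of the 16 genes, where 17.0% of all genes did so, and below them for none, where 16.7% did. Without wt 1 and clpp2-1 1 the number called was 4, where 3.56% of all genes were called.

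AT2G07775, a gene of 3 exons, rose the most. It stood at 1.3, 1.73 and 1.51 CPM in the wild type and at 4.67, 4.5 and 4.8 CPM in clpp2-2, so that the groups did not overlap and the lowest clpp2-2 library was well above the highest wild-type one. The log2 fold change was 1.62 ± 0.166 (SE, adjusted p = 0.00148 by edgeR's quasi-likelihood test).

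The single-exon gene AT2G07684 had few counts, 20, 32 and 30 in the wild type and 78, 65 and 75 in clpp2-2. These are 0.552, 0.892 and 0.807 CPM against 2.14, 1.84 and 2.12 CPM, again without overlap. The log2 fold change was 1.43 ± 0.266 (SE, adjusted p = 0.0173 by edgeR). The call was lost, with adjusted p of 0.05003 to 0.0585, when wt 1, wt 3 or any of the 3 clpp2-2 libraries was left out.

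AT2G07774 and AT2G07772 are neighbours in the insertion, 1961 bases apart and on the same strand. AT2G07774 measured 5.35, 5.74 and 6 CPM in the wild type and 17.9, 13.2 and 13.2 CPM in clpp2-2, and its log2 fold change was 1.37 ± 0.222 (SE, adjusted p = 0.0106 by edgeR). For AT2G07772 the values were 0.662, 0.864 and 0.834 CPM in the wild type and 1.65, 1.24 and 1.78 CPM in clpp2-2, and the log2 fold change was 0.98 ± 0.231 (SE, adjusted p = 0.0349 by edgeR). In both genes every clpp2-2 library exceeded every wild-type library. The call of AT2G07772 was lost without wt 1 and clpp2-1 1 (adjusted p = 0.133 by edgeR), and without any one of wt 1, wt 3, clpp2-1 1, clpp2-1 3 or the 3 clpp2-2 libraries (0.05016 to 0.1129).

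The other genes that rose, AT2G07787 and AT2G07806, lie on either side of AT2G07775, and these 3 genes follow each other along the insertion with no other of the 16 between them. AT2G07787 went from 6.04, 7.92 and 6.03 CPM in the wild type to 12.1, 11.7 and 13.2 CPM in clpp2-2, with a log2 fold change of 0.89 ± 0.13 (SE, adjusted p = 0.00718 by edgeR). AT2G07806 went from 2.92, 3.37 and 2.96 CPM to 4.06, 4.55 and 5.17 CPM, with a log2 fold change of 0.57 ± 0.147 (SE, adjusted p = 0.0444 by edgeR). Neither gene's clpp2-2 values overlapped the wild type. AT2G07806 lost its call without wt 1 and clpp2-1 1 (adjusted p = 0.159 by edgeR), and without any one of wt 1, wt 3, clpp2-1 1, clpp2-1 3 or the 3 clpp2-2 libraries (0.0567 to 0.1321). The 16 alternatives tried all kept the clpp2-2 calls of AT2G07774, AT2G07775 and AT2G07787.

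**Figure D2:**
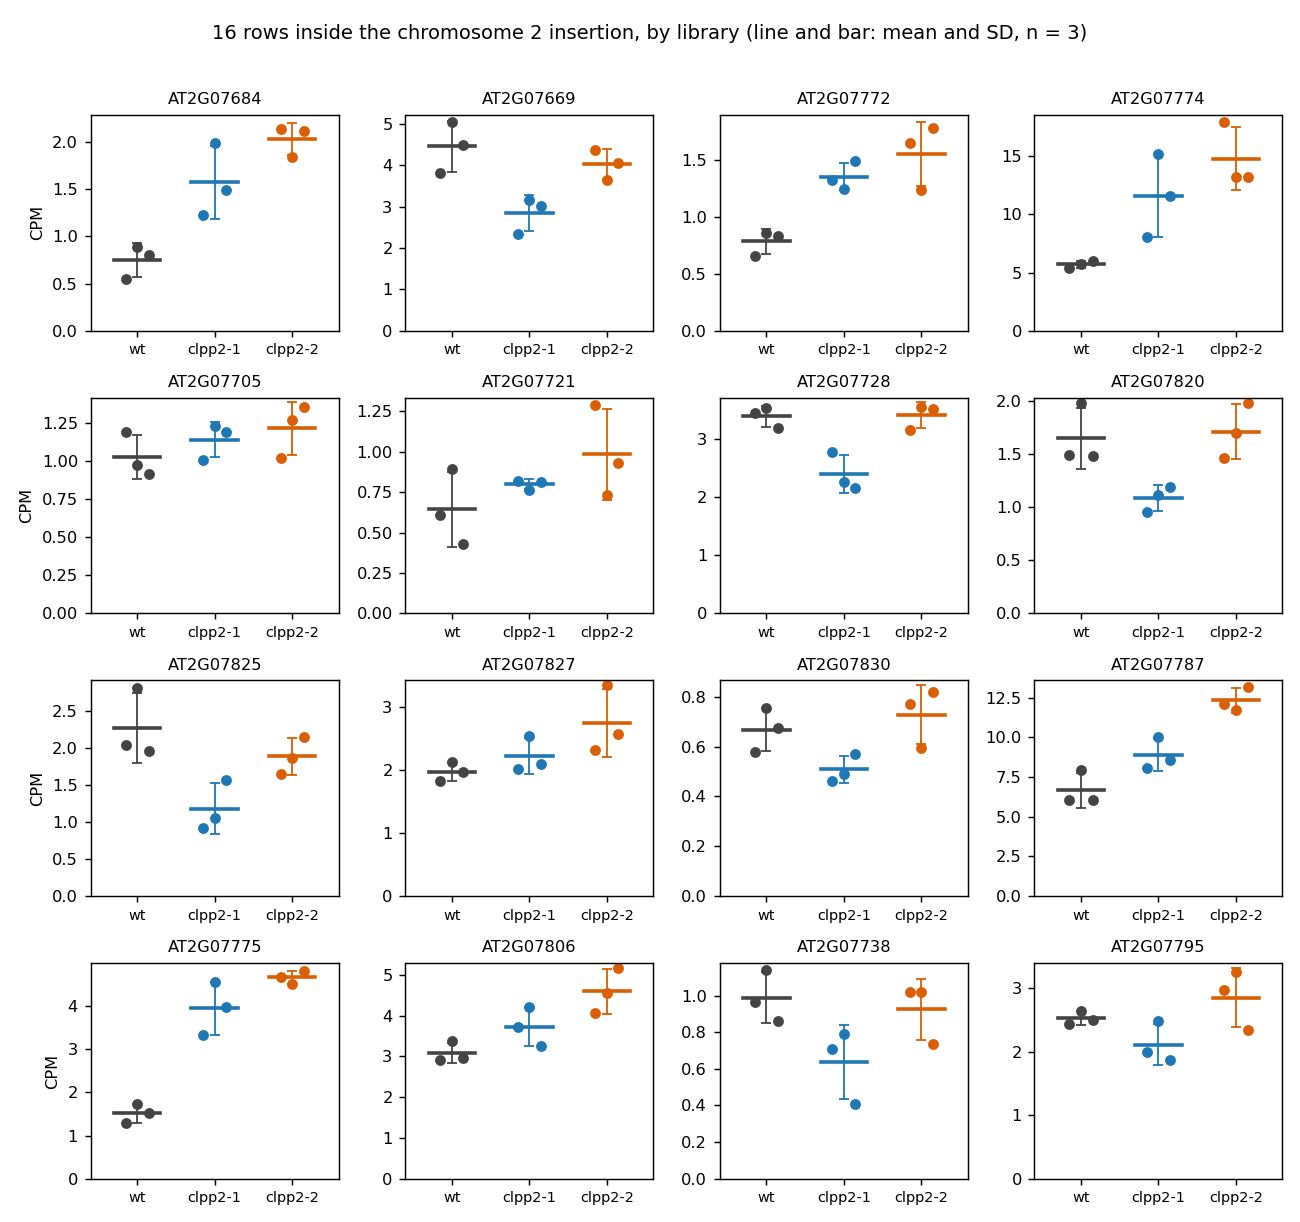
CPM of each of the 16 genes inside the insertion in the 9 libraries, 1 panel per gene in order along the insertion, with the mean (line) and SD (bar, n = 3) of each genotype. AT2G07775, AT2G07774 and AT2G07684 are among the genes whose libraries lie above the wild type in both lines, while AT2G07669 and AT2G07825 are lowest in clpp2-1.

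The remaining 10 genes did not pass the test in clpp2-2. AT2G07827 came nearest, at 1.97 ± 0.149 CPM in the wild type and 2.74 ± 0.536 CPM in clpp2-2 (SD, n = 3) with no overlap of the libraries, and its adjusted p by edgeR was 0.136. AT2G07721, the gene with the lowest level per kilobase, had a log2 fold change of 0.61 ± 0.335 (SE) and overlapping libraries. For AT2G07728 (0.01), AT2G07820 (0.05), AT2G07738 (-0.10), AT2G07830 (0.12), AT2G07669 (-0.15), AT2G07795 (0.18), AT2G07705 (0.24) and AT2G07825 (-0.27) the log2 fold changes were small beside those above, and those of AT2G07728, AT2G07820 and AT2G07738 changed sign under 3, 4 and 2 of the 16 alternatives.

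In clpp2-1 only AT2G07775 rose, and no gene of the 16 fell, where 0.177% of all genes were called and 0.153% were called higher (edgeR, adjusted p under 0.05). Its clpp2-1 libraries measured 3.32, 4.55 and 3.96 CPM, all above the wild type, and the log2 fold change was 1.38 ± 0.165 (SE, adjusted p = 0.0161 by edgeR's quasi-likelihood test). With the replicate number as a block the adjusted p was 0.05713, without wt 1 and clpp2-1 1 it was 0.06026, and without any one of wt 1, wt 3, clpp2-1 2, clpp2-1 3, clpp2-2 1 or clpp2-2 3 it ran from 0.05001 to 0.0983, so no gene was called under those settings. Its log2 fold change was 1.38 with the block and 1.40 without wt 1 and clpp2-1 1, close to the 1.38 above. DESeq2 called AT2G07774 as well, with 8.03, 15.2 and 11.6 CPM in clpp2-1 and a log2 fold change of 1.02 (adjusted p = 0.005802), which edgeR left at an adjusted p of 0.424.

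Below the threshold, the 16 genes spread in both directions in clpp2-1. All 3 clpp2-1 libraries lay above the wild type for 5 genes (AT2G07684, AT2G07772, AT2G07774, AT2G07787 and AT2G07775), where 5.17% of all genes did so, and below it for 6 genes (AT2G07669, AT2G07728, AT2G07820, AT2G07825, AT2G07830 and AT2G07738), where 4.44% did so. At an unadjusted p under 0.05, 9 of the 16 genes differed, where 6.44% of all genes did. The median log2 fold change was 0.16, against 0.00 over all genes.

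Among the 6 genes with lower values, AT2G07669 measured 3.81, 5.05 and 4.49 CPM in the wild type, 2.34, 3.16 and 3.01 CPM in clpp2-1 and 4.37, 3.65 and 4.04 CPM in clpp2-2. Its clpp2-1 libraries lay below those of both other genotypes, and its log2 fold change against the wild type was -0.65 ± 0.165 (SE, adjusted p = 0.681 by edgeR). AT2G07825 went from 2.27 ± 0.47 CPM in the wild type to 1.19 ± 0.342 CPM in clpp2-1 (SD, n = 3), a log2 fold change of -0.93 ± 0.258 (SE, adjusted p = 0.724 by edgeR). The values of AT2G07728 were 3.4 ± 0.175 and 2.4 ± 0.327 CPM, and those of AT2G07820 were 1.65 ± 0.285 and 1.09 ± 0.123 CPM. These differences did not hold up under the adjustment over all genes.

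**Figure D3:**
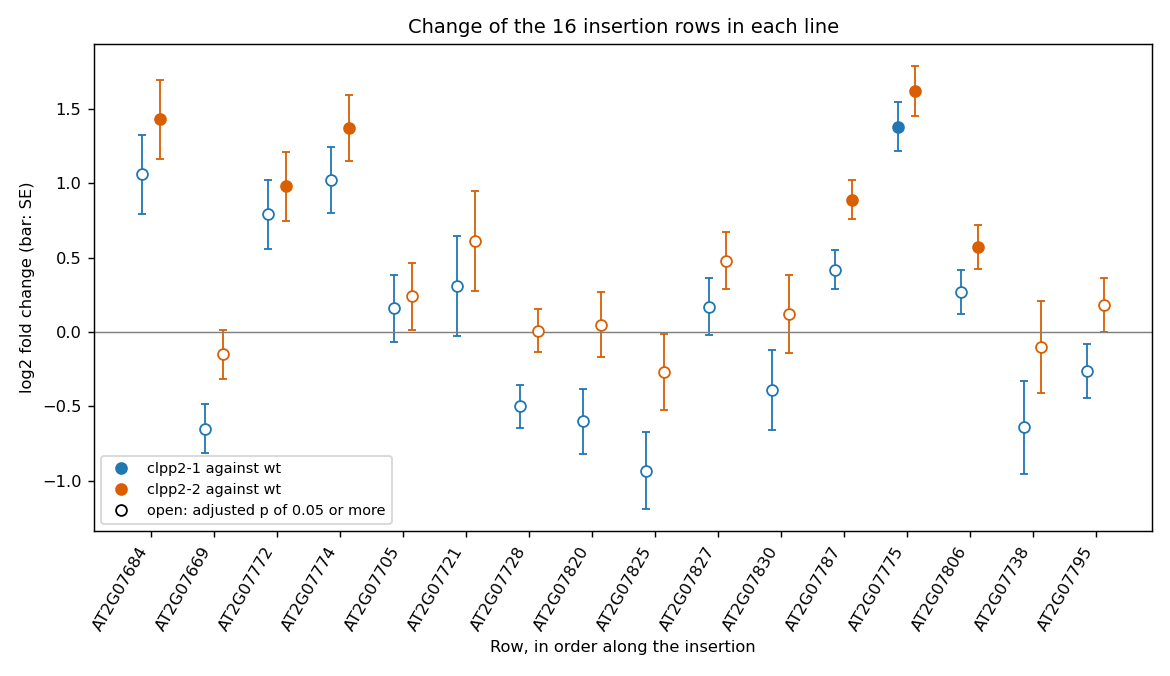
Log2 fold change against the wild type (points) with its SE (bars) for the 16 genes in order along the insertion, in clpp2-1 and in clpp2-2; filled points passed an adjusted p under 0.05. AT2G07775 is filled in both lines, at 1.38 and 1.62, and the clpp2-2 point lies above the clpp2-1 point for every gene.

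Averaged over both lines, 3 of the 16 genes rose: AT2G07775 (log2 fold change 1.50 ± 0.15, SE, adjusted p = 0.0032), AT2G07774 (1.20 ± 0.2, adjusted p = 0.0346) and AT2G07787 (0.65 ± 0.116, adjusted p = 0.0424), by edgeR's quasi-likelihood test. Over all genes 1.06% were called and 0.714% were called higher. AT2G07684 missed the threshold with 1.25 ± 0.24 (SE, adjusted p = 0.0562 by edgeR). Only AT2G07775 remained called without wt 1 and clpp2-1 1, where 0.460% of all genes were called. AT2G07774 lost its call without wt 1, wt 3, clpp2-1 3 or any clpp2-2 library (adjusted p 0.06543 to 0.1426 by edgeR), and AT2G07787 without any of these or clpp2-1 2 (0.07949 to 0.1796). Without wt 2, AT2G07684 (0.02624) and AT2G07772 (0.04876) were called too, with 10.6% of all genes called.

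Between the lines, none of the 16 genes was called (edgeR, 0 genes at an adjusted p under 0.05 and 6 at an unadjusted p under 0.05, where 3.97% of all genes were called and 21.0% had an unadjusted p under 0.05), and DESeq2, which called 8.75% of all genes, called 1, AT2G07787 (adjusted p = 0.02334), which edgeR also called without wt 2 (0.02642), where it called 7.12% of all genes. All 16 log2 fold changes of clpp2-2 against clpp2-1 were above 0, from 0.09 in AT2G07705 to 0.67 in AT2G07825, with a median of 0.40. Of all genes tested, 9606 of 20294 were above 0. The clpp2-2 libraries lay wholly above those of clpp2-1 for 6 of the 16 genes, against 15.7% of all genes. Of the ATMG rows 104 of 116 were above 0, with a median of 0.33, and 5 were called higher. The 16 values come from the same 6 libraries and are not independent of each other.

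In order along the insertion, the genes that rose in clpp2-2 did not form a single run. AT2G07684 starts 23.2 kb from the left edge, AT2G07772 and AT2G07774 start at 61.9 and 64.7 kb, and AT2G07787, AT2G07775 and AT2G07806 lie between 238 and 251 kb. AT2G07669, which did not pass, lies between the first and the second of these places at 43.7 kb, and the genes from AT2G07705 at 142 kb to AT2G07830 at 237 kb did not pass either. AT2G07738 and AT2G07795, at 253 and 254 kb, follow AT2G07806 closely and were not called.

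**Figure D4:**
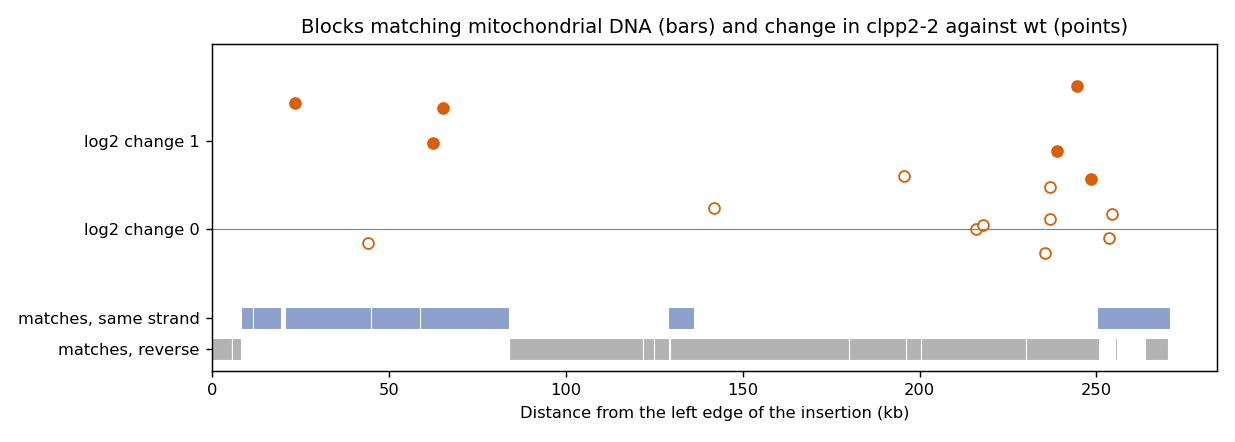
The insertion drawn to scale from its left edge, in kb: bars are the blocks that match mitochondrial DNA on the same strand or in reverse, and points are the log2 fold changes of the 16 genes in clpp2-2 against the wild type, filled where the adjusted p was under 0.05. Filled points stand at 3 places, starting 23.2, 61.9 and 238 kb from the edge.

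Some features were shared by the genes that rose, all noticed after their values were seen and given as counts only. Placed on the mitochondrial genome, all 6 called genes match its minus strand, as do 4 of the 10 that were not called. By exons, 5 of the 8 genes with several exons rose in clpp2-2 and 1 of the 8 genes with a single exon did. Conversely, 5 of the 6 genes whose clpp2-1 libraries all lay below the wild type have a single exon. AT2G07830 lies within AT2G07827 on the other strand, where 52 of its 123 bases fall in exons of AT2G07827. The sources used here do not say whether the libraries keep the strand, so reads within those 52 bases cannot be told apart, while most of the 619 matched exon bases of AT2G07827 lie outside AT2G07830.

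Among the ATMG rows tested, 26 of 116 were called higher and 1 lower in clpp2-1 (edgeR, 23.3% called), with a median log2 fold change of 0.21. In clpp2-2, 49 were called higher and 1 lower (43.1%), with a median of 0.57. The medians of the 16 genes inside the insertion were 0.16 and 0.36, and their called shares 6.25 and 37.5%. By lists of mitochondrial genes, complexes III to V, the later steps of respiration and ATP synthesis, had 8 of 10 rows higher in clpp2-2 with a median of 0.99. For complex I, the NADH dehydrogenase, 8 of 13 rows rose with a median of 0.66. The list of ribosomal proteins, cytochrome c maturation, matR and mttB had 7 of 14 higher and 1 lower, with a median of 0.55. The mutant lines share their wild-type libraries, and the ATMG rows were given the same libraries, so these counts are set side by side as descriptions.

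**Figure D5:**
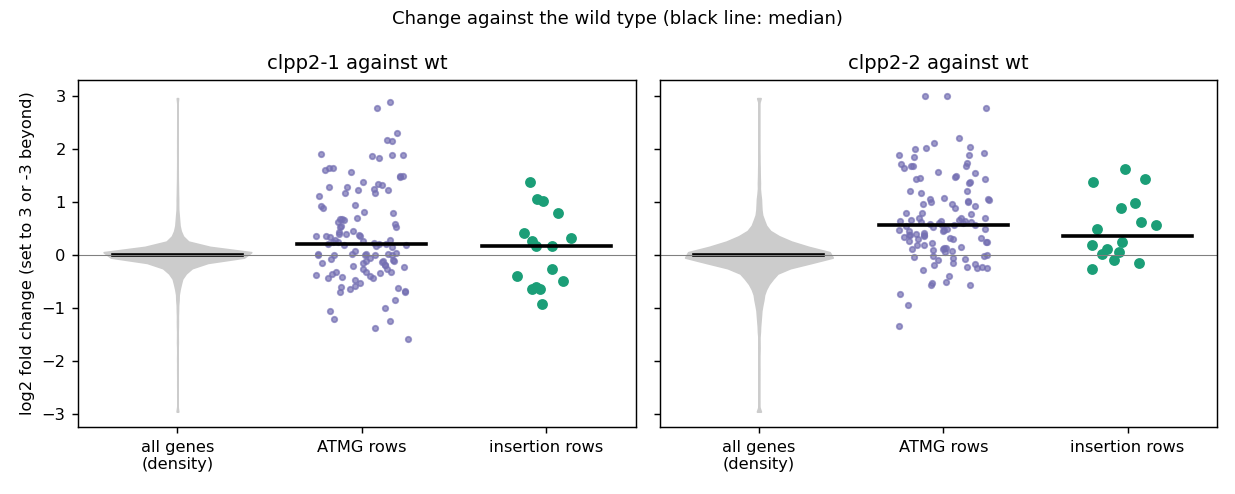
Log2 fold change against the wild type in clpp2-1 (left) and clpp2-2 (right) for all genes tested (grey density), the 116 ATMG rows and the 16 genes inside the insertion (points), with the median of each as a black line; values beyond 3 or -3 are drawn at 3 or -3. In clpp2-2 the medians are -0.01, 0.57 and 0.36.

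The level of each of the 16 genes was also divided by that of the summed ATMG rows of the same library, a comparison chosen after the data were seen, because no gene could be paired with 1 ATMG row. The mean log2 ratio of both lines lay below that of the wild type for 14 of the 16 genes and above it for 2, with a median difference of -0.70. With the mean log2 level of the ATMG rows in place of their sum, 11 lay below and 5 above, and the median difference was -0.28, so the ratio depends on how the ATMG level is set. With the sum, for 11 genes every one of the 6 libraries of the lines lay below every wild-type library. This gives p = 0.0119, the smallest that an exact two-sided permutation test of 6 against 3 libraries can give. All these ratios share the ATMG sum, itself 1.71 and 2.02 times the wild type in clpp2-1 and clpp2-2. A gene that did not change therefore falls in the ratio. AT2G07728 had a log2 fold change of 0.01 in clpp2-2 and a ratio difference of -1.01. These p-values do not tell a fall of a gene from the rise of the ATMG rows. In all, 51 exact permutation tests with the sum were run without adjustment, for each line alone and for both lines. Those with the mean log2 level or another pseudocount come on top. The lowest differences were -1.36 in AT2G07825 and -1.24 in AT2G07669, or -0.94 and -0.82 with the mean log2 level. Each line alone, with 3 libraries against 3, cannot go below p = 0.1 in this exact test.

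Relative to the ATMG sum, AT2G07775 was 0.36 higher in the lines on the log2 scale, above the wild type in 6 of 6 libraries (exact permutation p = 0.0119), but -0.05 (exact permutation p = 0.321) with a pseudocount of 2 CPM in place of 0.5. AT2G07774 was 0.21 higher (exact permutation p = 0.19), and AT2G07684 differed by -0.02 (exact permutation p = 0.857). With the mean log2 level of the ATMG rows, these 3 genes were 0.78, 0.63 and 0.40 higher (exact permutation p = 0.0119 each). On that level AT2G07772 turned from -0.29 to 0.13 and AT2G07787 from -0.27 to 0.15 (exact permutation p = 0.0476 for both with the sum, lost in most settings that left out a library), and AT2G07721, AT2G07827 and AT2G07806 no longer passed an exact permutation p of 0.05. The pseudocount of 0.5 CPM is near the wild-type level of AT2G07684, 0.75 CPM, and damps the change of such weak rows. With the sum and 0.1 CPM instead, AT2G07775 was 0.55 higher (exact permutation p = 0.0119). AT2G07772 (-0.09, p = 0.548), AT2G07721 (-0.45, p = 0.0952) and AT2G07787 (-0.24, p = 0.0833) then missed an exact permutation p of 0.05. MCM5, outside the insertion, was also lower relative to the ATMG sum, by a log2 difference of -0.66, or -0.24 with the mean log2 level (exact permutation p = 0.0119 for both). A lower ratio is therefore not particular to the genes inside the insertion.

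Of the 2 rows beyond the insertion, MCM5 measured 13.2, 13.4 and 13.4 CPM in the wild type, 12.2, 17.8 and 13.5 CPM in clpp2-1 and 19.4, 16.1 and 16.6 CPM in clpp2-2. The clpp2-2 libraries all lay above the wild type, and the log2 fold change of 0.38 ± 0.134 (SE) did not pass (adjusted p = 0.101 by edgeR), except without clpp2-1 2 (0.03368). That change was close to the median of 0.36 of the 16 genes. ABCC13 held 78 counts in wt 1 and 109 counts in clpp2-1 1 and was at 0 in the other 7 libraries, and the filter on low counts removed it.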

How the data were processed

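RNA was measured in 9 libraries, 3 per genotype. Per the labels' protocols and the values of the file, the deposited table holds expected counts, that is estimated counts of reads per gene as whole numbers, not normalized, for 22254 rows whose counts sum to at least 10. The submitters' processing notes list Salmon 0.14.0, FastQC, DESeq2, DESeq and TAIR10, without the role of each. No source used here says how reads matching both genomes were assigned. The totals of the libraries (36043744 to 36477053) differed little, so scaling before deposition is possible. Intervals cover counting error only.

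Counts were tested with edgeR 4.0.16 (R 4.3.3): filterByExpr kept 20294 rows, TMM scaled them, and the contrasts came from 1 quasi-likelihood fit to the 9 libraries. Calls were made at an adjusted p under 0.05 (Benjamini-Hochberg, all rows). CPM are counts divided by the TMM-scaled library size. SE was taken from the F statistic, as the size of the log2 fold change divided by its square root. Sequence matches came from BLAST 2.17.0 on TAIR10.1, whose coordinates and sequences (RefSeq) are printed, and stretches of 31 bases were compared on both strands. Ratios to ATMG rows used a pseudocount of 0.5 CPM and exact two-sided permutation tests (SciPy 1.17.1). Alternatives were the Wald test of DESeq2 1.42.0, its size factors in edgeR, limma-voom (limma 3.58.1), no filter and the replicate number as a block. Further ones were library sizes without organelle rows and the 18 rows, and only rows matched to mitochondrial DNA. Others left out each library in turn, or wt 1 and clpp2-1 1 together. The fits were tested on simulated data. Replicates were not copies of each other: within a genotype, chi-square per gene between libraries was 6 to 30.4, where counting error alone gives about 1.

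The rows, lists and the rule for named genes were chosen with earlier results of these data known. The rule gives values per library for rows called in any contrast and the 6 rows with the highest mean CPM, and other rows by summary; AT2G07825 and other rows are named beyond it with group means.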

Additional observations from a re-analysis of the deposited data

Results flagged for a closer look

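AT2G07680 (ABCC13) was removed by the filter on low counts and enters no comparison, yet it held 109 counts in clpp2-1 1 and 78 counts in wt 1. The other 7 libraries were at 0, which does not exclude a low level in them. Libraries clpp2-1 1 and wt 1 hold the most seed storage RNA of their genotypes, at 12.9 and 104 CPM, but wt 2, with 23.3 CPM, had no count of ABCC13. The part of seed RNA in these counts was not tested.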

How the results depend on the processing

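The number of the 18 rows called in clpp2-1 was 1 (0.177% of all genes called). It became 2 with DESeq2 (0.453%), and 0 with the replicate block (0.113%) or without wt 1 and clpp2-1 1 (0.113%). With each library left out it was 0 to 1 (0.112 to 0.307%). In clpp2-2 it was 6 (10.1%), and ran from 3 to 7 with each library left out, where 2.45 to 20.7% of all genes were called. For the mean of both lines it was 3 (1.06% of all genes), and became 5 with DESeq2 (5.90%) and 2 with limma-voom (0.956%). It was 1 with the replicate block (0.503%) and 1 without wt 1 and clpp2-1 1 (0.460%). With each library left out it was 1 to 5 (0.326 to 10.6%). Between the lines it was 0 (3.97%), with 1 by DESeq2 (8.75%) and 0 to 1 with each library left out (0.833 to 7.12%). Shares of library counts were 0.00382, 0.00465 and 0.00595% in the wild type, clpp2-1 and clpp2-2 over rows matched to mitochondrial DNA only, which leaves out ABCC13 and MCM5, and 0.00509 to 0.00532, 0.00575 to 0.00655 and 0.0074 to 0.00785% with each library left out. Ratios to the ATMG rows depended on the ATMG level and turned to 0.13 (AT2G07772) and 0.15 (AT2G07787) with the mean log2 of those rows, and to -0.05 (AT2G07775) with 2 CPM as pseudocount; the cause was not tested. Log2 fold changes near 0 changed sign under some of the 16 alternatives, for AT2G07728, AT2G07820 and AT2G07738 in clpp2-2, MCM5 in clpp2-1 and AT2G07795 for the mean of both lines, while those of the called rows kept theirs.

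Whether replicate numbers pair libraries is not stated. On edgeR's log2 CPM over 14263 genes, the measure tried first, same-numbered wild-type and clpp2-1 libraries correlated at 0.117, 0.0241 and 0.0563, which does not establish pairing. Several other scales and gene sets were tried after those values were seen. Of these, 2 are given here, with 0.201, 0.226 and 0.121 on log2(CPM + 2) over the same genes and 0.281, 0.395 and 0.164 over the 13293 genes with at least 5 CPM in every library. By all 3 measures, same-numbered wild-type and clpp2-2 libraries correlated at -0.112 to 0.0644. Differently numbered wild-type and clpp2-1 libraries correlated at -0.177 to 0.124, -0.32 to 0.131 and -0.442 to 0.232 by the 3 measures. By each measure these ranges overlapped the same-numbered values. Pairing of the wild type with clpp2-1 therefore depends on the measure and is not established, and none was seen with clpp2-2. The replicate block gave 4 calls in clpp2-2, without AT2G07772 and AT2G07806, where 8.15% of all genes were called.

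Summing each row with its matching ATMG rows, and the ratio to the closest ATMG row, were planned and not run, because the reference used here holds no ATMG identifiers. The ratios to the ATMG sum and their settings were chosen after seeing the data. Depth limits the weakest rows, which held as few as 15 counts.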
